A study of Mus musculus with 16 samples.

Results

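The nuclear genes of respiratory complex I were followed through single cells of the mouse hypothalamus and preoptic area. They were taken by symbol: every gene named Nduf followed by a, b, c, s or v and a digit was a member, and the assembly factors, named Ndufaf, were left out. The rule found 37 members of the 28683 genes listed. UMIs (unique molecular identifiers, one for each captured transcript) were counted by Drop-seq in 16 libraries, each from 1 female mouse, and 55675 cells were kept. All 37 members had at least 1 UMI in each of the 16 libraries, and their totals over the kept cells ran from 324 UMIs for Ndufa4l2 to 33528 UMIs for Ndufa4.

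The mice were on a mixed CD-1;129P2 background, entered treatment at 8 to 10 weeks of age and received 28 daily subcutaneous injections of corn oil or of tamoxifen at 0.1 mg/kg. Wild-type (WT) mice gave 3 oil libraries (S1, S5, S10) and 5 tamoxifen libraries (S3, S8, S9, S13, S16). Esr1 cKO mice gave 4 oil libraries (S4, S7, S12, S14) and 4 tamoxifen libraries (S2, S6, S11, S15). Esr1 cKO mice carried floxed Esr1 alleles and an Nkx2-1 Cre transgene on a bacterial artificial chromosome, so estrogen receptor alpha is removed only from cells of the Nkx2-1 lineage, and the WT mice were littermates without Cre. Cells outside that lineage keep the gene, and Esr1 in the summed neurons, 60.1 ± 23.1 CPM (a gene's UMIs scaled to the same total in every library) in WT oil (n = 3), 66.1 ± 7.86 in WT tamoxifen (n = 5), 48.7 ± 7.64 in Esr1 cKO oil (n = 4) and 52.9 ± 26.3 in Esr1 cKO tamoxifen (n = 4; mean ± SD), overlapped between genotypes. Drop-seq reads lie near the transcript's 3′ end and can fall outside the floxed exon, so this level does not check the deletion.

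Library totals ran from 2634253 to 8038158 UMIs. Libraries S10 (WT oil) and S11 (Esr1 cKO tamoxifen) stood apart in how they were deposited: their barcodes held at least 100 genes, while those of the other 14 libraries reached down to 20. Members took 82.9 of every 10000 UMIs in S10 and 85.6 in S11, within the range of the 16 libraries, 59.0 (S14) to 90.4 (S2). Within cell types S10 had the highest member level of the 16 libraries in 5 of 9 types and was among the highest 4 in all 9, and S11 was among the highest 4 in 2. Libraries S13 to S16 shared up to 359 cell barcodes per pair, and up to 10.8% of those of the smaller library in another pair, against a median of 1 shared barcode over the 120 pairs of libraries. Counts and medians of the main comparisons are given with and without S10 and S11.

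Complex I is the entry point of the mitochondrial respiratory chain. Its matrix arm takes electrons from NADH through a flavin and a chain of iron-sulfur clusters to ubiquinone, and its membrane arm pumps protons that ATP synthase then uses. The nuclear genome encodes the core subunits of the matrix arm and all accessory subunits, while the core pumping subunits are encoded in mitochondrial DNA, so the complex is built from both genomes; neurons are known for a high demand for oxidative phosphorylation.

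By their place in the complex the members were grouped as 7 core subunits (such as Ndufv1 and Ndufs1), 9 accessory subunits of the matrix arm, 9 of the proximal membrane arm, 10 of the distal membrane arm (Ndufb2 to Ndufb11), and the paralogs Ndufa4 and Ndufa4l2. Ndufa4 was first assigned to complex I and is now counted as a subunit of complex IV. In GENCODE release 21 (GRCm38) all 37 members were protein-coding genes, spread over 15 chromosomes, with 5 on chromosome 17. For 6 members another annotated gene overlaps on the same strand, and for Ndufa13, Ndufb2, Ndufb8 and Ndufb9 that neighbour is itself protein-coding, so reads could be split between them.

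RefSeq promoter windows (GRCm38.p6) were found for 32 of the 37 members, and Ndufa4l2 was among those with no entry. Shown here, on the gene's strand from 250 bases before to 30 bases after the start, are those of the 3 members with the largest fold in neurons (Ndufa5, Ndufa4, Ndufb5) and the 3 with the largest fall in microglia (Ndufb6, Ndufs5, Ndufa11), and capitals mark letters that match one of 4 motifs.
Ndufa5 (chr6:24527497-24527776, minus strand): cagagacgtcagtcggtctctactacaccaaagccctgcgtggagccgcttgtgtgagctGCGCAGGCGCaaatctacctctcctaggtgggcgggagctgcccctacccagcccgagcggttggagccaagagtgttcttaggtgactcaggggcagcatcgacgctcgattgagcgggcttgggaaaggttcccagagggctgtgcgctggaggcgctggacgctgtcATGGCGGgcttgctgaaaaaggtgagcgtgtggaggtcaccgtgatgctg
Ndufa4 (chr6:11907421-11907700, minus strand): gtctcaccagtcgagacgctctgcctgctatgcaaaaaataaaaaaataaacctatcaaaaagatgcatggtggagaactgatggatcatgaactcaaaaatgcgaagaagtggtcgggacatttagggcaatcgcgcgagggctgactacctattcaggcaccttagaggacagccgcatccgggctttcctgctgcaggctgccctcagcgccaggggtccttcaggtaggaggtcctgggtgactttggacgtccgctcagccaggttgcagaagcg
Ndufb5 (chr3:32736813-32737092, + strand): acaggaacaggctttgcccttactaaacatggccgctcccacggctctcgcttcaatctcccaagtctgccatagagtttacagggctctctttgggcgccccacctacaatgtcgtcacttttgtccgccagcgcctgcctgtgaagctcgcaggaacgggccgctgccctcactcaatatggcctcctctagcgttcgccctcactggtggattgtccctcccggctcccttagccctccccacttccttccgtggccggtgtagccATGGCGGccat
Ndufb6 (chr4:40279392-40279671, minus strand): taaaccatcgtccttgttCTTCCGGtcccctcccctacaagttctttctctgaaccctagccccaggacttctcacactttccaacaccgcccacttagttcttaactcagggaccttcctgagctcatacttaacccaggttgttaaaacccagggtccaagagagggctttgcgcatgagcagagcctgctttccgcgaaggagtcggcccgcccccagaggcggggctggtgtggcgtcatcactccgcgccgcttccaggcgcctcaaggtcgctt
Ndufs5 (chr4:123718157-123718436, minus strand): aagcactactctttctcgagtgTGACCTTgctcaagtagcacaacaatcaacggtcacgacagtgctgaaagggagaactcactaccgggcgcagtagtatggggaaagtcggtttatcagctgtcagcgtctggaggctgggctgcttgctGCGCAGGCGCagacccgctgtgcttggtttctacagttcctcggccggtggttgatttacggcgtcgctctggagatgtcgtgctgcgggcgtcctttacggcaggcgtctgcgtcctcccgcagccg
Ndufa11 (chr17:56717512-56717791, + strand): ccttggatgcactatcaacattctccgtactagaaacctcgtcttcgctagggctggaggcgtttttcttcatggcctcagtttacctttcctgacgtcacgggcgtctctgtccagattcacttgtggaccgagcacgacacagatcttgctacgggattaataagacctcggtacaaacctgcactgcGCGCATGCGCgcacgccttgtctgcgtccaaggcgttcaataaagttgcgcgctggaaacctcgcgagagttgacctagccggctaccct

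The motifs, searched on both strands of windows of 300 bases, were those of nuclear respiratory factor 1 (NRF1: GCGCA, any base, GCGC), of ETS factors (CCGGAAG), of YY1 (ATGGCGG) and of estrogen-related receptors (AAGGTCA). The NRF1 letters stood in 7 of the 32 member windows (21.9%) against 4.78% of 27025 promoters, and the YY1 letters in 8 (25%) against 4.19%. ETS letters were in 4 member windows (12.5% against 9.12%) and estrogen-related receptor letters in 3 (9.38% against 4.66%). Of the 6 promoters shown, Ndufa5 held NRF1 letters from base -190 and YY1 letters from base -20 relative to the start, Ndufs5 held NRF1 letters from base -98 and those of estrogen-related receptors on the other strand from base -228, and Ndufa11 held NRF1 letters from base -60. Ndufb5 held YY1 letters from base 20, Ndufb6 held ETS letters on the other strand from base -232, and Ndufa4 held none of the 4. The YY1 letters also spell a start codon followed by an alanine codon, and 6 of the 8 matches began within 60 bases before the start or after it. Median GC content was 59% in the member windows and 52.7% over all promoters.

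Cells were clustered and named from marker genes as neurons (9146 cells, median 1489 UMIs per cell), astrocytes (13572 cells, 481.5 UMIs), ependymal cells (3183, 1117 UMIs), oligodendrocytes (9228, 753 UMIs), polydendrocytes or oligodendrocyte precursors (4441, 773 UMIs), microglia (5397, 614 UMIs), endothelial cells (7186, 732 UMIs), mural cells of vessel walls (2358, 527 UMIs) and fibroblasts (967, 758 UMIs), and 197 cells stayed unnamed. None of the 37 members was among the genes used for clustering. For each type, UMIs were summed per library over its cells and over all other cells, and the sums were compared within library by edgeR's quasi-likelihood test with Benjamini-Hochberg adjustment over all genes tested. Fold changes carry edgeR's TMM scaling factors unless stated otherwise, while CPM are scaled by the total of each sum alone. The ratio of a pair of CPM values can therefore differ from the fold change printed beside it. For every type but neurons the other cells include the neurons, which held the most UMIs of any type (18601598). A sum over a type is a property of the captured RNA, in which less of a transcript per cell and fewer cells carrying it cannot be told apart.

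Member transcripts took the largest share of the RNA of neurons and the smallest share of that of microglia. Per 10000 UMIs of a type, the 37 members together held 101 ± 11.3 UMIs in neurons (mean ± SD over 16 libraries; lowest 83.9, median 99.1, highest 118) and 31.2 ± 4.28 in microglia (lowest 22.4, median 31.9, highest 39.1). Every library's neurons lay above every library's microglia. The means without S10 and S11 were 99.0 ± 10.2 in neurons and 30.5 ± 3.92 in microglia (n = 14).

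Mural cells came next after neurons, with 84.4 ± 10.4 (lowest 65.3, median 85.7, highest 98.5). They were followed by fibroblasts (69.0 ± 9.83), polydendrocytes (67.7 ± 8.83), astrocytes (66.5 ± 9.06), ependymal cells (64.5 ± 7.81), endothelial cells (61.0 ± 6.45) and oligodendrocytes (60.6 ± 6.37). Within a library, neurons exceeded mural cells by 16.9 ± 7.31 in 16 of 16 libraries, mural cells exceeded fibroblasts by 15.4 ± 7.76 in 15 of 16, and oligodendrocytes exceeded microglia by 29.4 ± 3.41 in 16 of 16. The other neighbours in this order differed by less than their spread. The highest mean level of a member was in neurons for 25 members, in mural cells for 11 and in endothelial cells for 1. The lowest was in microglia for 35.

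**Figure D1:**
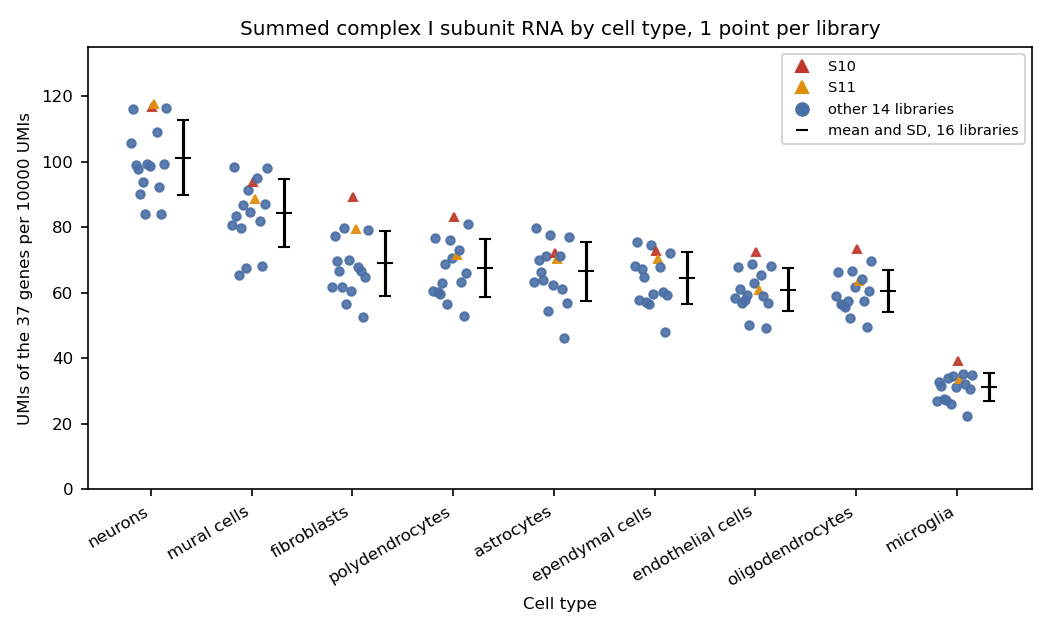
UMIs of the 37 members per 10000 UMIs of a cell type (vertical axis) in each of the 16 libraries, with the mean and SD over libraries beside the points; red and orange triangles are S10 and S11. Neurons lie highest at 101 ± 11.3, microglia lowest at 31.2 ± 4.28, and the 6 types from fibroblasts to oligodendrocytes overlap.

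In neurons all 36 members tested were higher than in the other cells, where 40.4% of all genes tested were higher and 41.3% lower. The median log2 fold change of the members was 0.68 (range 0.18 to 1.07) against 0.00 for all genes, and 32 of the 36 were higher in every library. All 36 were again higher without S10 and S11, with a median of 0.65 and 39.4% of all genes higher. The same 36 of 36 were called with library sizes alone (no TMM factors, 43.2% of all genes higher) and by DESeq2 (37.7%).

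Among accessory subunits Ndufa5, part of the matrix arm, was at 452 ± 58.1 CPM in neurons (lowest 354, median 440, highest 568) and 206 ± 18.1 in the other cells (lowest 179, median 203, highest 247). Each neuronal value lay above each of the others. The log2 fold change was 1.07 (SE 0.05, adjusted p = 4.07e-17) and 1.02 without S10 and S11. Ndufb5, of the distal membrane arm, was at 313 ± 44.3 CPM (lowest 244, median 306, highest 389) against 154 ± 25.8 (lowest 112, median 154, highest 210), log2 0.97 (SE 0.05, adjusted p = 6.69e-17), again with no overlap, and 0.96 without S10 and S11. Ndufa4 was at 894 ± 108 (lowest 737, median 895, highest 1134) against 411 ± 56.5 (lowest 305, median 413, highest 501), log2 1.07 (SE 0.05, adjusted p = 1.07e-17) and 1.04 without S10 and S11.

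The core subunits had the lowest median in neurons. Their median log2 fold change was 0.39, against 0.66 for the accessory matrix subunits, 0.74 for the distal membrane arm and 0.82 for the proximal membrane arm; these differences between groups of members were not tested. Ndufv2, the iron-sulfur partner of the flavin subunit, was at 293 ± 29.8 CPM against 154 ± 16.5 and had the highest fold of the core (log2 0.87). Ndufs3 had a log2 fold change of 0.40, Ndufs1, which carries iron-sulfur clusters, of 0.39, and Ndufs7, which lines the ubiquinone pocket, of 0.33. The lowest were Ndufv1, which binds the flavin and NADH (106 against 85.8 CPM, log2 0.25, adjusted p = 0.000496, higher in 14 of 16 libraries), and Ndufs8, an iron-sulfur subunit (153 against 127, log2 0.23, adjusted p = 0.000374, higher in 15 of 16).

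In microglia 35 of the 36 members tested were lower and 1 was higher, where 43.8% of all genes tested were lower and 30.2% higher. The members' median log2 fold change was -0.87 and that of all genes -0.20. Without S10 and S11 there were 34 lower and 1 higher (median -0.80, background 38.7% and 33.1%). With no TMM factors 35 were lower and 0 higher (background 59.8% and 20.7%, median -1.27 against -0.59 for all genes).

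Ndufa11, of the proximal membrane arm, was at 59.3 ± 16.6 CPM in microglia (lowest 36.6, median 57.2, highest 98.0) and 220 ± 36.0 in the other cells (lowest 164, median 223, highest 296). The ranges did not overlap, and the log2 difference was -1.50 (SE 0.10, adjusted p = 2.15e-18) and -1.46 without S10 and S11. Ndufs5, of the same arm, was at 24.3 ± 13.2 (lowest 8.07, median 22.3, highest 56.1) against 93.3 ± 21.7 (lowest 48.7, median 98.7, highest 142), log2 -1.57 (SE 0.15, adjusted p = 2.04e-13; -1.45 without S10 and S11). Ndufb6, of the distal membrane arm, was at 28.2 ± 17.5 (lowest 4.12, median 25.5, highest 84.2) against 104 ± 20.1 (lowest 62.8, median 106, highest 138), log2 -1.57 (SE 0.14, adjusted p = 4.86e-14; -1.49 without S10 and S11). For Ndufs5 and Ndufb6 the ranges over libraries met, while each library's own microglia lay below its other cells.

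The core subunits also had the median nearest 0 in microglia, -0.74 on the log2 scale against -0.82 for the accessory matrix subunits, -0.87 for the proximal and -0.97 for the distal membrane arm, differences that were not tested. Ndufv2 was at 70.8 against 208 CPM (log2 -1.18), Ndufs7 at 81.9 against 209 (log2 -0.93) and Ndufv1 at 45.6 against 95.9 (log2 -0.74). Ndufs3 had a log2 fold change of -0.51 and Ndufs1 of -0.50. Ndufs8 was called at -0.30 (adjusted p = 0.0108) but not without S10 and S11 (-0.20, adjusted p = 0.105). The 1 member called higher, Ndufa9, a matrix-arm subunit that binds NADPH, named here after its values were seen, was at 70.3 ± 13.6 against 75.0 ± 11.3 CPM and lower in 10 of 16 libraries, so that its log2 value of 0.31 (SE 0.11, adjusted p = 0.00764) came with the TMM factors and was not called with library sizes alone or by DESeq2.

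**Figure D2:**
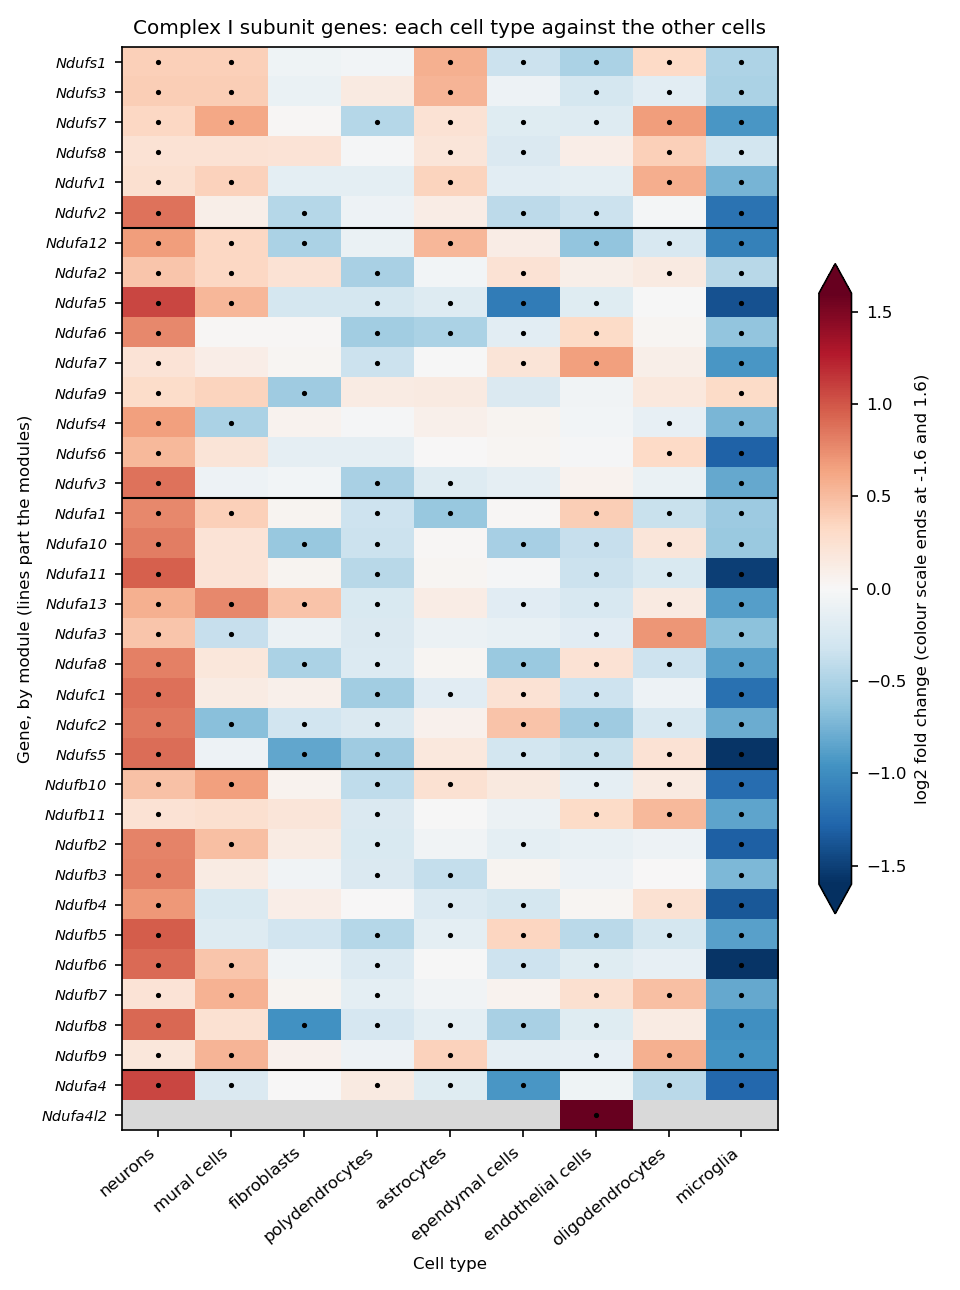
Log2 fold change of 36 of the 37 members (rows, ordered by role) in each of 9 cell types (columns) against all else in each library, with dots at an adjusted p under 0.05 and grey where a gene was not tested. The neuron column is red in every tested row shown and the microglia column blue in all but that of Ndufa9, while the other columns are mixed.

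In the other types members went both ways, and several splits moved with the scaling. Oligodendrocytes had 16 members higher and 9 lower (background 32.8% and 42.6%, members' median 0.12, all genes -0.09). With no TMM factors they had 4 higher and 26 lower (background 16.8% and 65.3%), and the all-gene median was -0.53. The members' median lay 0.21 above that of all genes under both scalings. With TMM factors it lay 0.016 above among cells with a mitochondrial share under 5%, and 0.10 above among cells with more than 500 genes. Ndufa3, of the proximal membrane arm, was at 284 ± 27.0 CPM (lowest 218, median 285, highest 326) against 234 ± 31.2, higher in 16 of 16 libraries, at log2 0.70 (SE 0.05, adjusted p = 1.76e-14), and Ndufs7 of the core had 0.67. Ndufa4 (338 against 608 CPM, log2 -0.43), Ndufa1 (log2 -0.36) and Ndufa8 (log2 -0.33) were among the 9 lower. The members' log2 fold changes ran from -0.43 to 0.70 with TMM factors and from -0.87 to 0.27 without them. Without S10 and S11, and with TMM factors, there were 17 higher and 7 lower (background 32.9% and 41.2%).

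Astrocytes had 8 members higher and 10 lower (background 32.3% and 41.2%, median 0.01, all genes -0.08). They had 5 higher and 21 lower with no TMM factors (background 24.7% and 50.5%). They had 11 higher and 5 lower without S10 and S11 (background 34.3% and 38.3%). Core subunits were 5 of the 8 higher, among them Ndufs1 (99.3 against 75.7 CPM, log2 0.57), while Ndufa1 (105 ± 19.1 against 180 ± 28, log2 -0.60), Ndufa6, a matrix-arm subunit (209 against 332, log2 -0.50), and Ndufb3 of the distal membrane arm (140 against 207, log2 -0.38) were lower.

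Mural cells had 15 members higher and 4 lower (background 15.5% and 38.9%, median 0.24, all genes -0.31). They had 16 higher and 5 lower with no TMM factors (background 15.1% and 41.6%), and 6 and 9 by DESeq2 (9.17% and 55.9%). Without S10 and S11 there were 17 higher and 1 lower (background 15.7% and 32.1%). Among cells with a mitochondrial share under 5% there were 0 higher and 6 lower (background 4.93% and 27.5%, median -0.35, all genes -0.73). Ndufb10, of the distal membrane arm, was at 433 ± 78.2 CPM (lowest 324, median 427, highest 614) against 273 ± 39.8, higher in 16 of 16 libraries, at log2 0.66 (SE 0.11, adjusted p = 4.34e-09; 0.72 without S10 and S11). Of the core, 5 of 7 were higher. Ndufc2, of the proximal membrane arm, was at 207 ± 109 (lowest 0, median 214, highest 432) against 370, a log2 fold change of -0.67. Mural cells were few in some libraries, down to 25 cells, and their median mitochondrial share of 8.06% was the highest of the 9 types; its part in these results was not tested.

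Polydendrocytes had 23 members lower and 1 higher (background 33.9% and 30.7%, median -0.23, all genes 0.00). They had 21 lower and 2 higher without S10 and S11 (background 31.6% and 31.3%). With no TMM factors they had 19 lower and 2 higher (background 30.4% and 35.2%, median -0.16, all genes 0.07). Their mean summed member level, 67.7 ± 8.83, lay above that of oligodendrocytes, 60.6 ± 6.37. Calls against the other cells therefore do not rank these types against each other. With TMM factors and all libraries, all 9 proximal membrane arm members were lower (median -0.33). Ndufv3, an accessory subunit beside the flavin site, was at 152 against 203 CPM (log2 -0.52) and Ndufa7 of the matrix arm at 204 against 242 (log2 -0.34), while Ndufa4 was the 1 higher (658 against 562, log2 0.14, adjusted p = 0.0386). Ependymal cells had 5 higher and 16 lower (background 30.2% and 34.8%, median -0.15, all genes -0.07). They had 3 higher and 21 lower with no TMM factors (background 26.7% and 40.2%), and 5 and 15 without S10 and S11 (27.7% and 34%). There Ndufa5 was at 133 ± 31.2 against 299 ± 37.9 CPM (log2 -1.12, SE 0.08, adjusted p = 5.17e-14), Ndufa4 at 301 ± 109 against 591 ± 93.6 (log2 -0.94), and Ndufc2 at 480 against 359 (log2 0.45).

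Endothelial cells, in which all 37 members were tested, had 7 higher and 19 lower (background 36.2% and 40.2%, median -0.14, all genes -0.05). With no TMM factors they had 3 higher and 30 lower (background 26.4% and 52.3%). Leaving out S10 and S11 again gave 7 and 19 (background 35.5% and 39.4%). The 7 higher include Ndufa4l2, which passed the filter on low counts in this type alone, so its call is only a description. Ndufa12, an accessory subunit of the matrix arm, was at 118 against 217 CPM (log2 -0.64), Ndufc2 at 221 against 389 (log2 -0.56) and Ndufa7 at 305 against 228 (log2 0.66). Fibroblasts had 1 higher and 8 lower (background 16% and 28.9%, median -0.02, all genes -0.21). They had 1 higher and 10 lower without S10 and S11 (background 13.5% and 31.9%). Ndufb8, of the distal membrane arm, was at 102 against 203 (log2 -0.96), Ndufs5 at 43.7 against 89.4 (log2 -0.83), and Ndufa13, also known as GRIM-19, was the higher one at 403 against 301 (log2 0.46). Fibroblasts numbered as few as 18 in a library.

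Ndufa4 and Ndufa4l2 differed in where they were found. A UMI of Ndufa4 was found in 56.5% of neurons and 12.2% of microglia, whose median depths were 1489 and 614 UMIs. Ndufa4l2, a paralog known as a target of hypoxia-inducible factor, had a UMI in 92 of 2358 mural cells, or 3.90% (95% Clopper-Pearson limits 3.16 and 4.76%), and 2.59% of endothelial cells (2.23 to 2.98%). It had one in 0.310% of fibroblasts, 0.251% of ependymal cells, 0.0984% of neurons, 0.0901% of polydendrocytes, 0.0325% of oligodendrocytes, 0.0185% of microglia and 0 of 13572 astrocytes, where a limit of 3 counts allows a share of cells with a UMI of up to 0.0221%. These intervals cover counting error only. Free RNA was not measured, so its part in the shares of the brain types outside vessels was not tested.

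The shares without S10 and S11 were 3.69% in mural and 2.49% in endothelial cells. With each cell thinned to 500 UMIs, and shallower cells left out, they were 3.32% and 0.966%. Of the 9 mural markers, 7 were also raised in the cluster named endothelial cells. Whether its Ndufa4l2 UMIs came from mural cells within it was not tested. In endothelial cells Ndufa4l2 was at 23.7 ± 10.9 CPM (lowest 7.46, median 21.3, highest 42.5) against 2.34 ± 1.49 in the other cells (lowest 0, median 2.20, highest 6.12). The ranges did not overlap; as the gene passed the filter on low counts in this type alone, its values are a description.

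**Figure D3:**
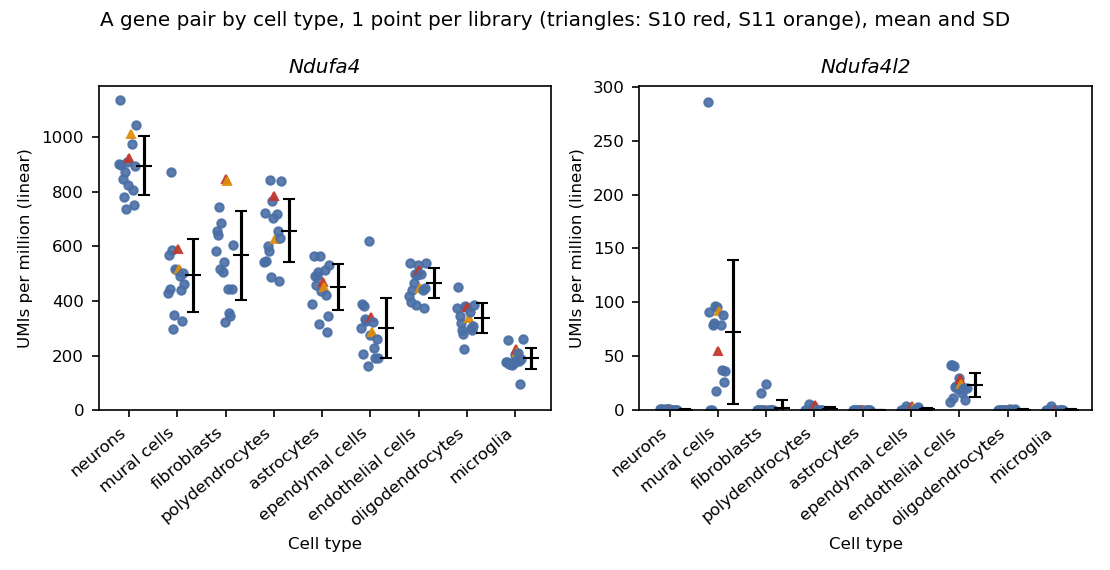
CPM (vertical axes) of Ndufa4 and of Ndufa4l2 in each of the 16 libraries, by cell type. Ndufa4 is highest in neurons (894 ± 108), and Ndufa4l2 stands above the other types in mural and endothelial cells (23.7 ± 10.9 in the latter).

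The nuclear genes of the other respiratory complexes were set beside the members. In neurons 9 complex III genes were higher and 0 lower (median 0.42), of 14 complex IV genes tested 11 were higher and 3 lower (median 0.48), and of 17 ATP synthase genes 16 were higher and 0 lower (median 0.59). In microglia 9 complex III genes (median -0.73), 11 of 12 complex IV genes (median -0.84) and 14 of 17 ATP synthase genes (median -0.69) were lower. Of 14 complex I assembly factors 11 were higher and 1 lower in neurons (median 0.43). Ndufab1, the acyl carrier protein that also sits in complex I but has no digit after its letter, was at 325 against 154 CPM in neurons (log2 1.02) and at 78.0 against 219 in microglia (log2 -1.10). Without S10 and S11 the neuronal counts of higher genes were 8 of 9 for complex III, 11 of 13 for complex IV, 16 of 17 for ATP synthase and 10 of 14 for assembly factors, and in microglia 8 of 9, 11 of 12 and 13 of 17 genes of the first 3 lists were lower.

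The 7 complex I subunits encoded in mitochondrial DNA together took 104 ± 16.96 of 10000 UMIs in neurons and 98.7 ± 20.3 in microglia (n = 16), with overlapping libraries, 156 ± 25.01 in mural cells and 76.4 ± 15.7 in polydendrocytes. In neurons 1 of them, mt-Nd5, was called higher (log2 0.13) and 4 lower (median -0.11), and with no TMM factors 3 were higher and 3 lower. In microglia the calls turned with the scaling: 6 were higher and 0 lower with TMM factors (median 0.35), but 0 higher and 3 lower without them (median -0.04), and mt-Nd4 was at 2114 ± 474 CPM against 2416 ± 423 in the other cells. All 7 were lower in polydendrocytes (median -0.52) and all 7 higher in mural cells (median 0.63) with and without TMM factors. Leaving out S10 and S11 gave 1 higher and 4 lower in neurons, 6 and 0 in microglia, 0 and 7 in polydendrocytes, and 7 and 0 in mural cells. The filter on cells used the mitochondrial share, to which these 7 genes contribute, so their levels are bounded by it.

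Within neurons 24 clusters were compared with the other neurons of the same libraries. The clusters were drawn from the same cells, although with none of the members among the genes that drew them, so these values describe the clusters. Over all 24 the members had 68 calls higher and 238 lower of 864, where 6.5% of all gene tests were higher and 17.6% lower. With no TMM factors the calls were 85 higher and 141 lower, beside 11704 and 16736 of 155253 tests of all genes. Without S10 and S11 they were 75 and 204, beside 9291 and 23463 of 156776.

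Most of the lower calls came from a few clusters. The cluster led by Lrrtm4, with Sgcz, Lingo2 and Fgf14, held 1016 cells from 14 libraries and none from S10 or S11. All 36 members tested were lower there, where 40.6% of all genes tested were lower and 37.2% higher. The median log2 fold change was -2.58 (range -3.74 to -0.45) against -0.08 for all genes. The same 36 were lower with no TMM factors (median -2.71, 44% of all genes lower) and by DESeq2 (median -3.02, 50.5% lower). Together the members took 17.9 ± 2.99 of 10000 UMIs there (n = 14, lowest 13.1, median 17.7, highest 23.9), below the lowest library of every other neuronal cluster except those led by B230323A14Rik and Slc6a3.

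In the Lrrtm4-led cluster Ndufa4 was at 94.7 ± 43.0 CPM (lowest 49.6, median 86.4, highest 204) against 942 ± 113 in the other neurons (lowest 786, median 932, highest 1202), from 88 UMIs. The ranges lay far apart. The core subunits had a median log2 fold change of -1.32 against -2.54 in the accessory matrix subunits, -2.69 in the proximal and -2.70 in the distal membrane arm. Ndufs1 was at 62.6 against 99.2 CPM, higher in 2 of 14 libraries, and Ndufv1 at 58.5 against 106. Ndufs6, a zinc-binding subunit of the matrix arm named here after its values were seen, was at 13.7 against 205 CPM over the summed libraries, from 14 UMIs.

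The mitochondrially encoded subunits stood opposite in these cells. All 7 were higher in the Lrrtm4-led cluster, with a median log2 fold change of 1.19 and a summed level of 199 ± 51.0 per 10000 UMIs. Of the other nuclear lists, 9 complex III genes (median -2.38), 11 complex IV genes (median -2.55) and 14 of 15 ATP synthase genes (median -2.54) were lower. The cluster's cells had a median of 781 UMIs and a median mitochondrial share of 7.05%, against 1489 UMIs and 4.44% over all neurons. The 11 neuron markers were all present, at 408 per 10000 UMIs in sum, and red blood cell markers were at 2.23. The part of depth, mitochondrial share and library in this result was not tested.

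The cluster led by B230323A14Rik, 99 cells, also had none from S10 or S11 and 36 of 36 members lower, where 54.3% of all genes tested were lower. The members' median was -3.73 against -1.39 for all genes (-3.44 with members at 0 set to their bound). With no TMM factors 30 were lower, beside 26.2% of all genes. The members summed to 13.03 ± 7.11 per 10000 UMIs (n = 9). Ndufb4, of the distal membrane arm, had 0 of 101211 UMIs against 284 CPM in the summed other neurons, and was at least 9.57-fold lower by the limit of 3 UMIs over the group. Ndufa8, of the proximal membrane arm, had 0 against 260.5 CPM and was at least 8.79-fold lower. These cells had a median of 864 UMIs and a mitochondrial share of 7.68%, whose part was not tested.

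In 6 other clusters at least 14 members were lower. The Slc6a3-led cluster (82 cells, median 380 UMIs) had 36 lower at a median of -2.77, beside 66.7% of all genes lower and a median of -2.22. It had 4 members lower with no TMM factors, beside 4.78% of all genes. The Pmch-led cluster (606 cells, median 360 UMIs), in which Crh and Trh, genes of other neuropeptides, were also among the leading genes, had 31 lower (median -1.14, all genes -0.71, 40.3% of them lower). The Ndnf-led cluster had 26 lower (background 32.8%), the Vip-led 21 (19.1%) and the Ctss-led 17 (18.9%). With no TMM factors these were 1 (background 1.9%), 0 (2.33%) and 0 (0.0964%). The Vipr2-led cluster (835 cells, median 1362 UMIs) had 14 lower and 2 higher, where 19.3% of all genes were lower and 18.6% higher, with a median of -0.23 against 0.00 for all genes. There 24 were lower with no TMM factors (background 25.9%), 21 by DESeq2 (22.2%) and 10 without S10 and S11 (17%). In the Ndnf-led cluster, summed over libraries, Ndufv1 had 0 of 42067 UMIs against 105 CPM, at least 1.48-fold lower. Ctss is a microglial gene. The lower counts without S10 and S11 were 34 in the Slc6a3-led cluster (background 55.6%), 30 in the Pmch-led (40.3%) and 22 in the Ndnf-led (28.2%). They were 18 in the Vip-led (13.2%) and 6 in the Ctss-led (4.23%).

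Higher members were found in 3 clusters above all. The Meis2-led cluster (1121 cells) had 24 members higher and 0 lower (10.4% of all genes higher), with a median log2 fold change of 0.26 against 0.01 for all genes, and a summed level of 118 ± 11.9 per 10000 UMIs. There Ndufa4 was at 1097 ± 132 CPM against 855 ± 115 (log2 0.34) and Ndufv1 at 140 ± 30.4 against 99.0 ± 15.3 (log2 0.49). The Hcrt-led cluster (668 cells) had 20 higher (background 9.81%; median 0.23, summed level 117 ± 12.1), and Ndufb5 was at 412 ± 80.8 against 300.0 ± 44.6 (log2 0.42), higher in 16 of 16 libraries and named here after its values were seen. The Foxb1-led cluster (265 cells) had 13 higher (background 9.18%; median 0.26, summed level 126 ± 20.3). Leaving out S10 and S11 gave 24 (background 9.12%), 23 (9.56%) and 16 (9.75%) higher in these 3 clusters. Their cells had median UMIs of 2193, 3031 and 2505, and the part of depth was not tested.

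**Figure D4:**
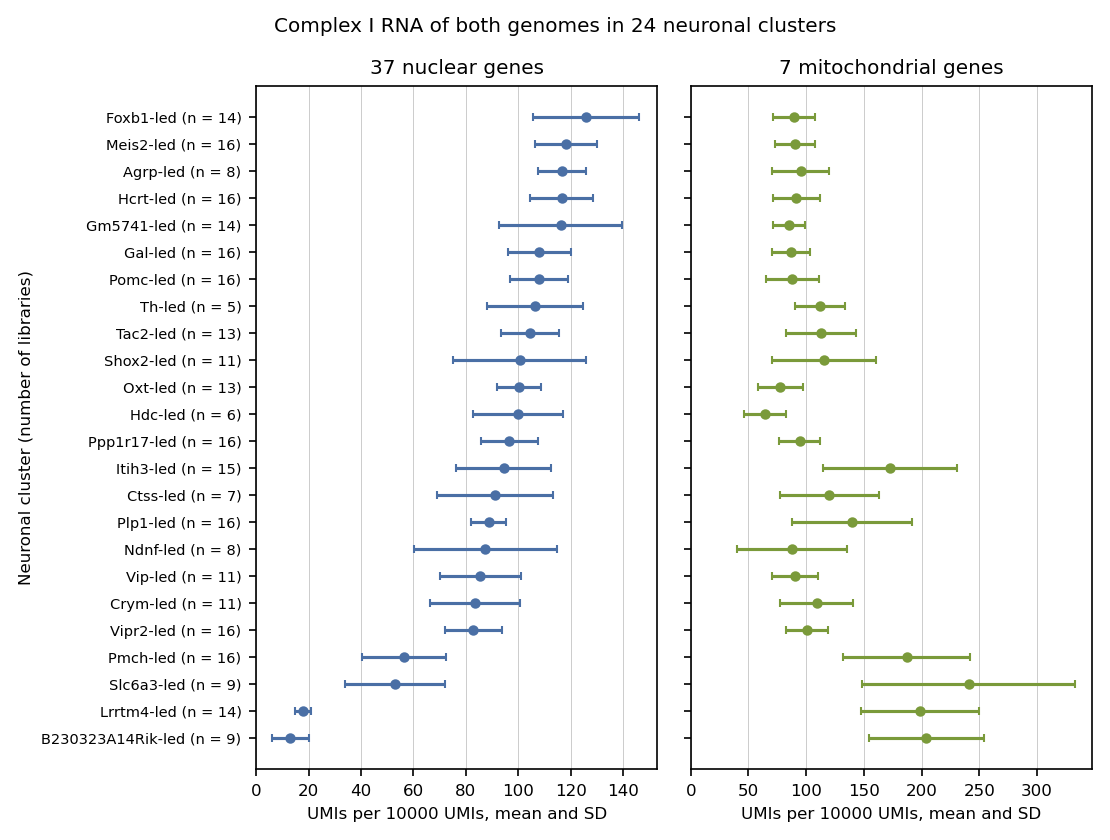
Summed level per 10000 UMIs (horizontal axes) of the 37 nuclear members (left) and of the 7 mitochondrially encoded complex I genes (right) in 24 neuronal clusters, as mean and SD over libraries. The Lrrtm4-led and B230323A14Rik-led clusters are lowest on the left (17.9 ± 2.99 and 13.03 ± 7.11) and reach 199 ± 51.0 and 204 ± 49.5 on the right.

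Whether tamoxifen or loss of Esr1 moved the members was tested between mice, with the 4 groups in 1 edgeR fit per cell type. No member passed the adjusted threshold in any of 5 contrasts over 9 cell types, in 316 tests of a member in a type for each contrast, by edgeR or by DESeq2. On simulated counts with a set spread, this edgeR fit called 21% of neuronal genes changed by 1 log2 unit and 98% of those changed by 2. In mural cells, where 88 changed genes passed the low-count filter, it called 2.56% and 59.2%. The spread was set alike for every simulated gene and not taken from the members. These percentages therefore do not give the share of changed members that would be called. The 0 calls do not show that members were unchanged. Of all 64931 gene tests 0% were called for tamoxifen in WT, 0% for tamoxifen in Esr1 cKO, 0% for the interaction, 0.00308% for genotype and 0% for genotype in oil alone. At an unadjusted p under 0.05 edgeR gave 4 member tests for tamoxifen in WT (1.27%, all genes 3.25%) and 15 in Esr1 cKO (4.75%, all genes 3.58%). It gave 13 for the interaction (4.11%, all genes 4.87%) and 14 for genotype (4.43%, all genes 3.46%). For genotype in oil alone it gave 23 (7.28%, all genes 4.84%), with 63 of the 316 differences above 0. DESeq2 gave 1 in WT (0.316%, all genes 1.87%), 10 in Esr1 cKO (3.16%, all genes 2.09%) and 7 for the interaction (2.22%, all genes 2.96%). It gave 10 for genotype (3.16%, all genes 2.01%) and 14 in oil alone (4.43%, all genes 3.1%). With S10 and S11 left out the edgeR counts were 14 of 314 in WT (4.46%, all genes 5.19%), 14 in Esr1 cKO (4.46%, all genes 4.44%), 9 for the interaction (2.87%, all genes 5.70%), 6 for genotype (1.91%, all genes 4.37%) and 16 in oil alone (5.10%, all genes 5.99%; 154 of 314 above 0). Single libraries, left out 1 at a time, moved these edgeR counts too. In WT they ran from 1 (without S1, 0.316%, all genes 4.02%) to 11 (without S10, 3.49%, all genes 3.77%). In Esr1 cKO they ran from 6 (without S14, 1.9%, all genes 3.14%) to 32 (without S12, 10.3%, all genes 5.14%). For the interaction the range was 6 (without S7, 1.9%, all genes 4.27%) to 18 (without S12, 5.77%, all genes 5.62%). For genotype it was 3 (without S10, 0.952%, all genes 4.97%) to 24 (without S12, 7.69%, all genes 4.6%). In oil alone it was 9 (without S14, 2.85%, all genes 3.89%) to 32 (without S12, 10.3%, all genes 6.38%).

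In neurons the summed level of the members was 104 ± 13.5 per 10000 UMIs in WT oil (90.0 in S5, 106 in S1 and 117 in S10), 101 ± 9.03 in WT tamoxifen (92.4 to 117), 93.7 ± 12.2 in Esr1 cKO oil (83.9 to 109) and 107 ± 11.9 in Esr1 cKO tamoxifen (94.0 to 118). All 4 groups overlapped. Without S10 WT oil was at 97.9 ± 11.2, and without S11 Esr1 cKO tamoxifen was at 103 ± 11.5.

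The members' median log2 difference in neurons was -0.07 for tamoxifen in WT (8 of 36 above 0) and 0.16 in Esr1 cKO (36 of 36 above 0). Without S10 and S11 these were 0.06 (27 of 36) and 0.08 (33 of 36), so the WT median changed sign. The median interaction was 0.28 and fell to 0.05 without those libraries. The sign in WT and most of the size of the interaction thus rested on these 2 libraries. S10 and S11 held none of the cells of the Lrrtm4-led and B230323A14Rik-led clusters, whose member levels were the lowest of the neuronal clusters. The part of this make-up in their neuronal levels was not tested. The median of all genes and their share above 0 are not given for the group contrasts. Members' medians and counts above 0, in neurons or over the 9 types, therefore do not set members apart from other genes. Leaving out S10 alone gave 0.06 in WT and an interaction of 0.12, and leaving out S11 alone gave 0.09 in Esr1 cKO and an interaction of 0.18. In the other 8 types the Esr1 cKO medians ran from 0.11 in oligodendrocytes to 0.29 in fibroblasts with all libraries, and from 0.06 to 0.26 without S10 and S11. Of the Esr1 cKO oil libraries, S14 had the lowest summed level of all 16 in 7 of 9 types, and S7 was among the lowest 4 in all 9. S14 also kept the smallest share of its UMIs after the cell filter (48.9%). Its kept cells had the highest median mitochondrial share of the 16 libraries (10.3%), and the part of either was not tested.

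**Figure D5:**
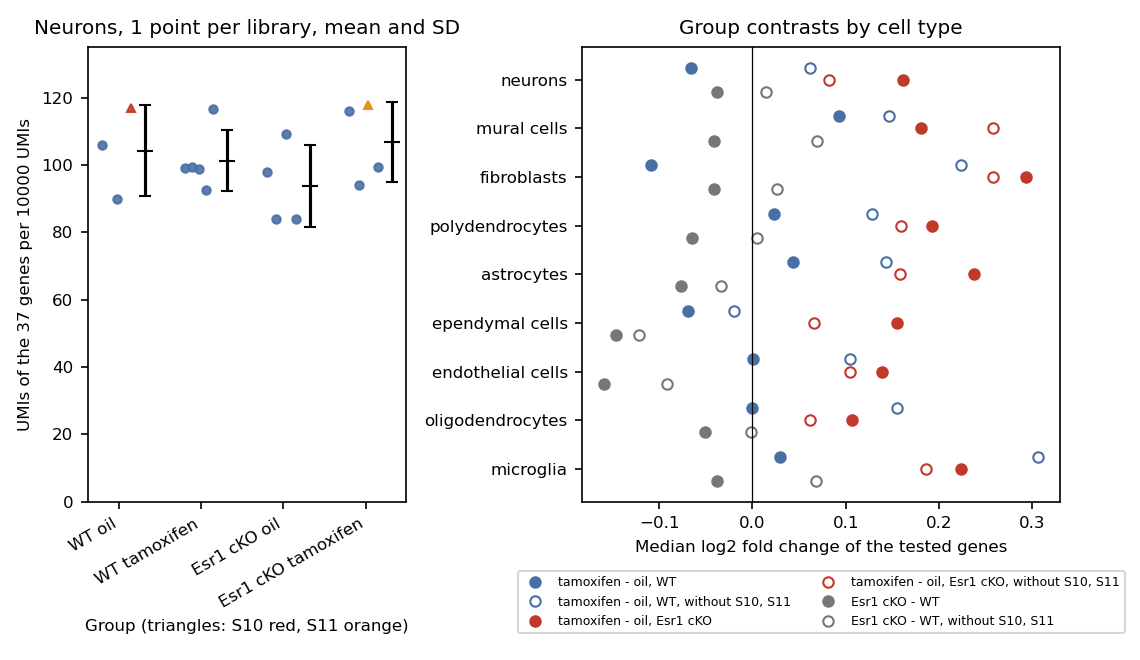
Left, UMIs of the 37 members per 10000 UMIs of neurons in each library by group, with mean and SD; right, median log2 difference of the members by cell type for 3 contrasts, filled with all 16 libraries and open without S10 and S11. The 4 groups overlap on the left (93.7 ± 12.2 to 107 ± 11.9), and on the right the neuronal WT median goes from -0.07 to 0.06.

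Ndufs5, of the proximal membrane arm, had the smallest p of the members for tamoxifen in WT neurons. It was at 201, 145 and 161 CPM in the WT oil libraries (S1, S5, S10) and at 85.7, 112, 113, 93.0 and 151 in the WT tamoxifen libraries (S3, S8, S9, S13, S16). In Esr1 cKO oil it was at 127, 149, 101 and 74.8 (S4, S7, S12, S14), and in Esr1 cKO tamoxifen at 136, 133, 157 and 165 (S2, S6, S11, S15). In WT the tamoxifen libraries lay below the oil libraries except for S16, which was above S5, and in Esr1 cKO one oil library, S7, lay within the range of the tamoxifen libraries. The log2 difference was -0.62 (SE 0.22, unadjusted p = 0.0107, adjusted p = 0.999971) in WT by edgeR and 0.39 (SE 0.21) in Esr1 cKO, and the interaction was 1.02 (SE 0.30, unadjusted p = 0.00383, adjusted p = 0.930). Without S10 and S11 the interaction was 0.94 (unadjusted p = 0.00535, adjusted p = 0.581). In ependymal cells the interaction of Ndufs5 was 1.496 (SE 0.494, edgeR unadjusted p = 0.00653, adjusted p = 0.941). Of the Esr1 cKO tamoxifen libraries in that type, S6 was at 137.8 CPM and the others at 65.8 to 77.0. The interaction without S6 is not given.

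Ndufv2 in microglia had the smallest p for tamoxifen in Esr1 cKO. It was at 96.9, 111, 86.5 and 72.6 CPM in Esr1 cKO oil (S4, S7, S12, S14) and at 58.9, 56.1, 37.7 and 53.2 in Esr1 cKO tamoxifen (S2, S6, S11, S15). The groups did not overlap. The log2 difference by edgeR was -0.86 (SE 0.28, unadjusted p = 0.00534, adjusted p = 0.965), and -0.74 (unadjusted p = 0.0175) without S10 and S11, in a type whose members had a positive median of 0.22. Ndufb6 had the smallest p in Esr1 cKO neurons, at 125.5, 132, 124.5 and 90.2 in oil and 170.0, 161, 157 and 142 in tamoxifen (the same library order), again with no overlap, and a log2 difference of 0.41 (SE 0.17, unadjusted p = 0.0259, adjusted p = 0.999993).

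Of the remaining contrasts the smallest unadjusted p values by edgeR stood as follows, none of them past the adjusted threshold. For genotype, Ndufs3 of the core in oligodendrocytes had a log2 difference of -0.50 (SE 0.14, unadjusted p = 0.00242 by edgeR), Ndufb11 in microglia one of -0.54 (SE 0.18, unadjusted p = 0.00834) and Ndufc2 in fibroblasts one of -0.53 (SE 0.20, unadjusted p = 0.0166). For tamoxifen in Esr1 cKO, Ndufb11 in oligodendrocytes had 0.45 (SE 0.16, unadjusted p = 0.0111 by edgeR) and Ndufs6 in mural cells 0.99 (SE 0.38, unadjusted p = 0.0141). The interaction of Ndufb8 in oligodendrocytes was 0.74 (SE 0.25, edgeR unadjusted p = 0.0068). In endothelial cells 8 of 37 members had an unadjusted edgeR p under 0.05 for genotype, beside 4.01% of all genes, and 1 of 37 did without S10 and S11, beside 4.14%.

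Within the 13 neuronal clusters with enough cells in each group, no member was called for tamoxifen by edgeR or DESeq2, where 0% of all gene tests were called in WT and 0.00636% in Esr1 cKO. At an unadjusted p under 0.05 edgeR gave 11 of 339 member tests in WT (3.24%, all genes 4.09%) and 15 in Esr1 cKO (4.42%, all genes 3.92%). DESeq2 gave 4 (1.18%, all genes 1.85%) and 6 (1.77%, all genes 1.89%). In the other 14 libraries, S10 and S11 left out, the edgeR counts were 10 (2.91%, all genes 4.91%) and 21 (6.10%, all genes 4.91%) of 344.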

How the data were processed

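Per the labels, single-cell suspensions of 16 mouse hypothalamus-preoptic area samples were run through Drop-seq, and the deposited matrices hold raw UMI counts per gene and cell barcode made by the authors. The submitters' processing notes name STAR 2.6, mm10 and Seurat 3.6.1, without saying which step each served. In the study's own methods 3.6.1 is the version of R. Seurat is given there with another version, for the analysis of the cells. No normalization had been applied to the deposited counts. All groups were dissociated in parallel over 4 days, 4 mice a day, but the day of each library was not given in the sources used here, so a day effect could not be fitted.

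Kept cells had over 200 but under 4000 genes and under 15% mitochondrial UMIs. Clustering used Seurat 5.3.0 (canonical correlation alignment) and marker lists, with doublets (798 called by Scrublet in scanpy 1.11.5 at a score over 0.25, a fixed value because the automatic one changed between repeat runs) kept in the main results. Counts were summed per library and cell type (at least 10 cells) or neuronal cluster (at least 3 cells in at least 4 libraries) and tested two-sided with edgeR 4.0.16 (TMM, filterByExpr, quasi-likelihood, threshold 0.05 after Benjamini-Hochberg adjustment over all genes tested), with the library as a block for a type against the rest. DESeq2 1.42.0, library sizes alone, no low-count filter, other cell filters and left-out libraries were alternatives, and leaving out cells with shared barcodes was added after seeing the data. Scripts were tested on simulated counts.

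The study tested single cells as units; sums per mouse were used here. The members and all lists were chosen with earlier results of these data known. Values are named per type for up to 3 members with the largest fold in each direction that moved alike in every library, per contrast for the smallest p values, over neuronal clusters for the 3 largest folds, and throughout for core subunits and the Ndufa4 pair. The values of some genes are not reported here. Precision is set by library totals of 2634253 to 8038158 UMIs.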

Additional observations from a re-analysis of the deposited data

Results flagged for a closer look

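Of 72 groups of 4 or 5 libraries tested for a value far from the others by Dixon's ratio, 6 held one, and chance flags about 1 in 20 groups. In neurons of WT tamoxifen, the 37 members summed to 116.53 per 10000 UMIs in S16 and to 92.42 to 99.27 in the other 4 libraries. In mural cells they summed to 95 in S12 and 65.31 to 68.08 in the other Esr1 cKO oil libraries, and to 98.53 in S2 and 86.7 to 88.55 in the other Esr1 cKO tamoxifen libraries. In fibroblasts of Esr1 cKO tamoxifen they summed to 64.72 in S15 and to 77.38 to 79.66 in the others. Ndufs5 in ependymal cells of Esr1 cKO tamoxifen was at 137.8 CPM in S6 and 65.8 to 77.0 in the others. Ndufc2 in fibroblasts of Esr1 cKO oil was at 180.5 CPM in S4 and 209.1 to 211.5 in the others.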

How the results depend on the processing

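The 36 of 36 members higher in neurons stood under 8 of the 9 other settings tried for cell types (34 of 36 in WT libraries alone), and 34 to 36 were lower in microglia under all 9. The 36 lower members of the Lrrtm4-led cluster stood under the 4 alternatives that changed its data (no TMM factors, DESeq2, no low-count filter, no shared barcodes), and the 0 calls of members between groups under all run for them, single libraries left out included. The counts that moved by over 1.5 times did so as follows, and the causes were not tested. The shares of all genes called moved between settings too, so these counts alone do not set members apart from other genes. With no TMM factors astrocytes had 5 higher and 21 lower, oligodendrocytes 4 and 26, endothelial cells 3 and 30, with 3 higher in ependymal cells, 2 in polydendrocytes and 0 in microglia. In the neuronal clusters 141 were then lower in all, with 4 in the Slc6a3-led, 1 in the Ndnf-led, 0 in the Vip-led, 0 in the Ctss-led and 24 in the Vipr2-led, and 23 higher in the Foxb1-led. DESeq2 gave 6 higher and 9 lower in mural cells, 14 lower in oligodendrocytes, 2 higher in ependymal cells, 0 in polydendrocytes and 0 in microglia, and 1 lower in the Ndnf-led, 0 in the Vip-led and 0 in the Ctss-led cluster. With no low-count filter 9 were higher and 15 lower in oligodendrocytes, 9 higher in mural cells, 5 in astrocytes, 4 in endothelial cells, 1 in ependymal cells and 0 in microglia, polydendrocytes and fibroblasts, with 13 lower in fibroblasts and 1 (Ndufa4l2) in neurons; the clusters had 13 higher and 387 lower, with 29 lower in the Vipr2-led and 10, 2 and 0 higher in the Meis2-led, Hcrt-led and Foxb1-led. With a mitochondrial share under 5% astrocytes had 2 higher and 16 lower, oligodendrocytes 7 and 22, endothelial cells 1 higher, and mural, ependymal, fibroblast, microglia and polydendrocyte counts of higher members were 0. With more than 500 genes per cell 3 were lower in astrocytes, 2 higher in ependymal cells, 2 in endothelial cells, 0 in polydendrocytes and 0 in microglia, and Ndufa4 in mural cells turned from -0.23 to 0.00156. WT libraries alone gave 3 higher and 8 lower in ependymal cells, 0 and 15 in polydendrocytes, 12 lower in endothelial cells, 4 in fibroblasts, 1 in mural cells and 0 higher in microglia. Without S10 and S11 there were 5 lower in astrocytes, 1 in mural cells and 6 in the Ctss-led cluster, 2 higher in polydendrocytes, and a median interaction of 0.0464 in neurons. With at least 10 neurons per library fewer clusters could be fitted, with 576 member tests in place of 864. The clusters led by Slc6a3, B230323A14Rik, Ndnf, Vip and Ctss were among those left out. Those fitted had 169 calls, 91 of them lower, and 20 higher in the Foxb1-led, so this total is not over the same clusters. No paired analysis between the groups of mice was possible because the groups share no replicate numbers and no label ties a library to a day. Depth limits the rarest member, Ndufa4l2, to a description.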
